A study of Mus musculus with 13 samples.

Results

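The enzymes that write, copy and erase DNA methylation, and the Polycomb enzymes that methylate histone H3, were followed across mouse mammary tissue as 10 genes named by symbol: Dnmt1, Uhrf1, Dnmt3a, Dnmt3b, Tet1, Tet2, Tet3, Ezh1, Ezh2 and Suz12. All 10 were present among the 38279 gene symbols of the count table, and all 10 passed the filter on low counts that left 20101 genes for testing. The table holds 6 mammary tumours from Cre-positive mice, mated at 12 weeks so that Fbxw7 would be excised, and 4 whole mammary glands from Cre-negative, wild-type mice mated at the same age. The age at sampling was 20 weeks for glands 1 to 3 and 40 weeks for gland 4. For tumours 1 to 6 it was 25, 32, 39, 19, 53 and 25 weeks. The labels do not name the promoter that drives Cre, and tumour and gland differ in genotype, tissue state and age together, so the effects of these cannot be told apart. In whole tissue, fewer cells of a type and less RNA per cell cannot be told apart either.

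Dnmt1 copies methylation onto newly made DNA, guided by Uhrf1, which binds DNA methylated on the old strand only. Dnmt3a and Dnmt3b place methyl groups on unmethylated sites, and the Tet enzymes oxidise methylated cytosine, a step towards its removal. Polycomb repressive complex 2 (PRC2) methylates lysine H3K27 through Ezh1 or Ezh2, and Suz12 is a core subunit that both forms need. Ezh2 is known from dividing cells and Ezh1 from resting ones, and copying of methylation takes place at DNA replication, so the levels are set below against Mki67, a marker of proliferating cells.

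RefSeq promoters (GRCm38.p6) were matched for all 10 genes, 15 start sites in all, and the 250 bases before each start were searched on both strands for 4 words that E2F factors are known to bind, TTTCCCGC, TTTGGCGC, TTTCGCGC and TTTGCCGC. Such a word stood before a start of Dnmt1, Uhrf1 and Suz12 and before none of the other 7 genes. These words were in 1.86% of all 32851 promoters of that length, and in 4.28% of the 9646 promoters with at least 14 CpG dinucleotides. Both shares are per promoter and not per gene. The windows with a word held 26, 30 and 37 CpG dinucleotides for Dnmt1, Uhrf1 and Suz12, so neither share is matched to them. E2F factors are known for driving genes of the cell cycle, but the promoter of Mki67 held 0 of these words. The words TTTGAA and TTCGAA of the cell cycle CHR element, in 17.1% of all promoters, stood before a start of Dnmt1, Dnmt3b, Suz12 and Mki67. The 3 E2F sites are shown as the rarer word, 30 bases each, read 5′ to 3′ on the strand of the gene, with the word in capitals. On the Dnmt1 strand the word appears as its reverse complement, and the 30 bases lie inside an annotated exon.
Dnmt1, chr9:20952824-20952853, minus strand: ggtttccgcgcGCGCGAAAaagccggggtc
Uhrf1, chr17:56304117-56304146, plus strand: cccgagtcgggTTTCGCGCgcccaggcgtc
Suz12, chr11:79992876-79992905, plus strand: cgacccctcatTTTCCCGCgaattcagttc

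The promoters of Ezh2 and Ezh1, the alternative catalytic subunits whose levels moved in opposite directions, are shown as shorter stretches. These are free of exons annotated on the strand of the gene, and exons on the other strand were not checked. CCAAT, the box bound by the factor NF-Y, is in capitals on either strand. The word CCAAT occurs in 33.8% of all promoters of 250 bases. The Ezh2 window of 250 bases held 3 such words, 2 of them in the stretch shown, and that of Ezh1 held 0. The word also stood before a start of Dnmt1, Uhrf1, Tet3, Suz12 and Mki67. It stood before no start of Dnmt3a, Dnmt3b, Tet1 and Tet2, of which Dnmt3b was called higher in tumours. A match or its absence describes these letters only. The Ezh1 window has 14 CpG dinucleotides and the Ezh2 window 23, against a median of 6 over all promoters, and the Tet2 window has 51.
Ezh2, chr6:47595059-47595183, minus strand: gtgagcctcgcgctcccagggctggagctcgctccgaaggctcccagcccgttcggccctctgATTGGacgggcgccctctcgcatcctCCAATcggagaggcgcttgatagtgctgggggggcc
Ezh1, chr11:101226464-101226588, minus strand: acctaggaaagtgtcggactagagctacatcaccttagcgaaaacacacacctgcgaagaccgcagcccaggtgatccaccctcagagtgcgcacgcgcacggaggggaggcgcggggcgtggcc

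Total counts per library ran from 13723065 (gland 3) to 48353114 (gland 2). Markers of other tissues differed within the groups: a list of 20 salivary gland genes took 51.6% of the counts in tumour 1 and 19.3% in tumour 6, against 0.0145% to 0.0396% in the other tumours, and mitochondrial transcripts took 37.5% of the counts in gland 4. Of 10 luminal epithelial markers 8 rose, with summed levels of 458 to 766 CPM (counts scaled for library size by the TMM method) in glands and 1750 to 4080 CPM in tumours. Of 10 adipocyte markers 9 fell, from sums of 7630 to 29300 CPM in glands to 17.5 to 1330 CPM in tumours. T cell markers summed to 525 and 415 CPM in glands 2 and 3, to 15 and 1.72 CPM in glands 1 and 4 and to 4.13 to 74.8 CPM in tumours, with 1 of 7 lower in tumours. B cell markers showed the same 2 glands high, at 307 and 325 CPM, with none of 5 called. Of 7 skeletal muscle markers 4 fell, from sums of 35.3 to 102000 CPM in glands to 2.87 to 813 CPM in tumours, and 3 of 6 endothelial markers fell, from 159 to 202 CPM to 41.1 to 440 CPM. Of 9 squamous markers 7 were tested and 3 were called higher, and the 9 summed to 3.11 to 6.56 CPM in glands and 11.2 to 170 CPM in tumours. The 3, Krt6a, Dsg3 and Sprr1a, reached at most 0.111, 0.0557 and 0.223 CPM in a gland. They could pass the filter on low counts only through the tumours, so these calls do not test a direction. Of the 9 squamous markers 1 was at 0 in all glands. None of the luminal, adipocyte, T cell, B cell, muscle and endothelial markers was at 0 in all glands. The part of tissue make-up in the results that follow was not tested.

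Tumours had more RNA of Uhrf1, Dnmt3b and Ezh2 than glands and less of Ezh1. These 4 of the 10 genes, 3 higher and 1 lower, passed the test (edgeR quasi-likelihood test, adjusted p below 0.05), where 15.1% of all tested genes passed, 6.89% as higher and 8.19% as lower. Dnmt1, Dnmt3a, Tet1, Tet2, Tet3 and Suz12 did not pass. The median log2 difference of the 10 genes was 0.57, against 0.169 over all tested genes. Every tumour lay above every gland for Dnmt3b and Ezh2, as for 6.54% of all genes, and below every gland for Ezh1, as for 7.5%. Under upper-quartile scaling, which moved the median difference of all genes by 0.16 and the split of calls from 1384 higher and 1646 lower to 1809 and 1313, the same number of members were called in each direction.

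**Figure D1:**
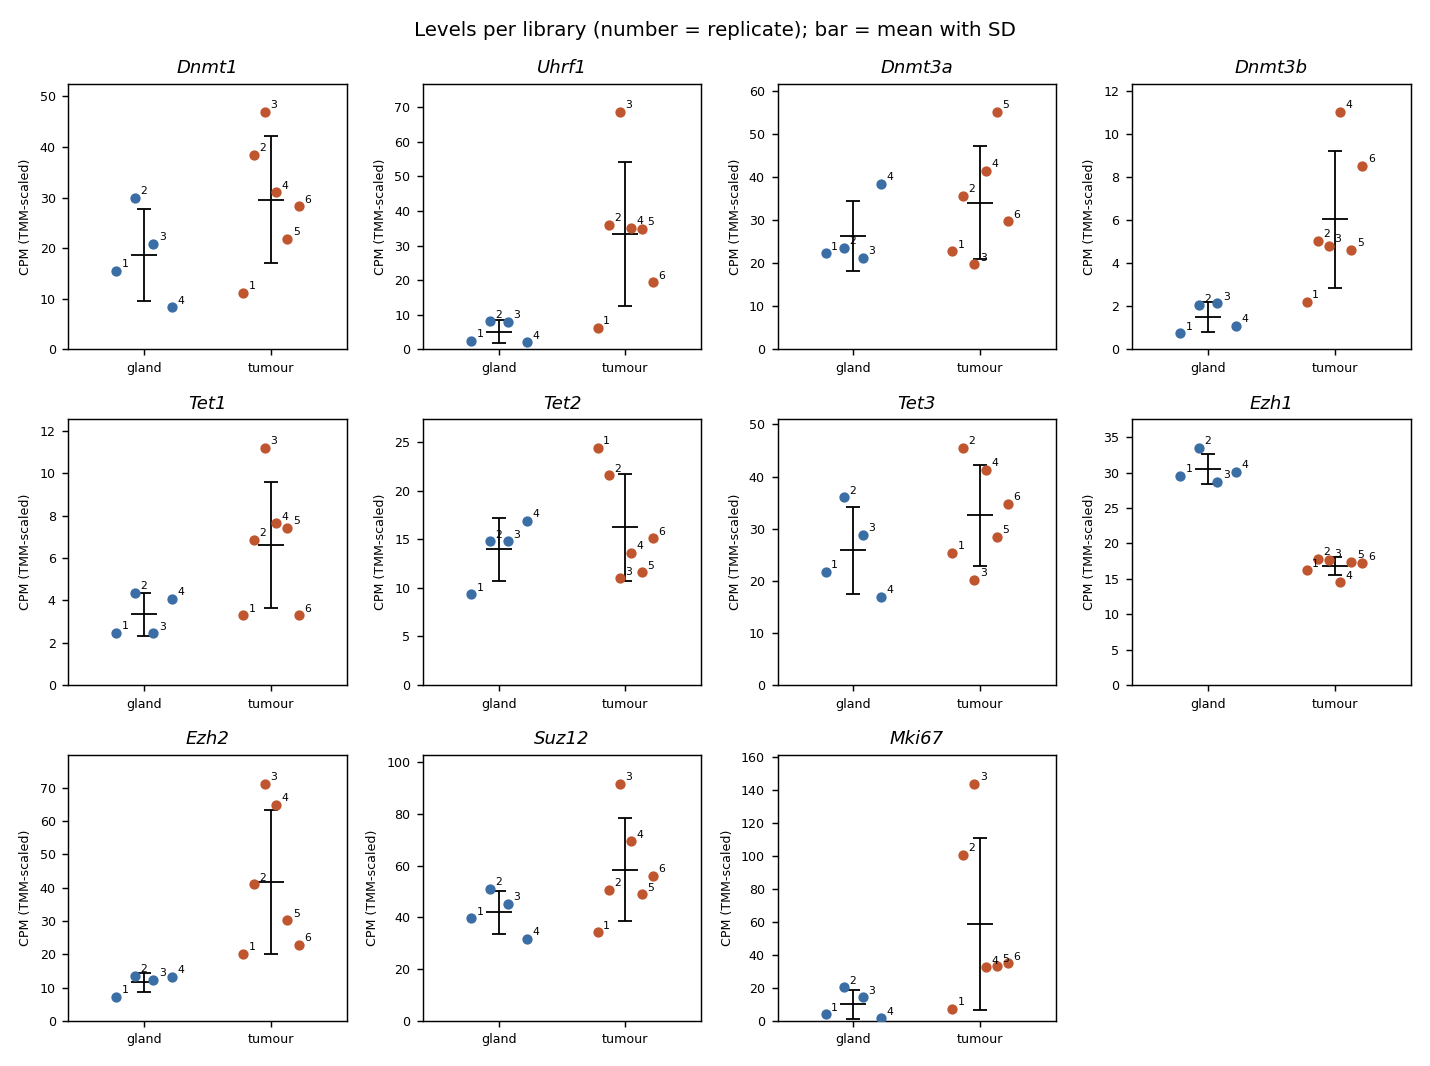
Level of each gene in every library, in TMM-scaled CPM on a linear axis from 0, for 4 glands and 6 tumours. Points carry the replicate number, and the bar is the mean with SD. Ezh1 lies between 28.7 and 33.5 CPM in glands and between 14.5 and 17.8 CPM in tumours, with no overlap, while Uhrf1, Ezh2 and Mki67 spread widely among the tumours.

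Among the genes that copy methylation, Uhrf1 stood at 2.51, 8.07, 7.85 and 2.03 CPM in glands 1 to 4. In the tumours it ran from 6.24 CPM in tumour 1 over a median of 35 CPM to 68.6 CPM in tumour 3. The tumours other than tumour 1 were all above the highest gland, and tumour 1 lay within the gland range. Among the glands the higher levels were those of glands 2 and 3, with the high sums of lymphocyte markers. Uhrf1 rose by 2.70 ± 0.66 on the log2 scale (SE, n = 4 and 6; edgeR adjusted p = 0.0233), a 6.51-fold difference. The call was lost without gland 1 or gland 4 (edgeR adjusted p = 0.0773 and 0.0574) and with age as a covariate (edgeR adjusted p = 0.0562). Without tumours 1 and 6 the log2 difference was 3.06 (edgeR adjusted p = 0.00610).

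Dnmt1, the maintenance methyltransferase itself, was at 15.5, 30, 20.8 and 8.27 CPM in glands 1 to 4. Among the tumours it was lowest in tumour 1 at 11.2 CPM, had a median of 29.7 CPM and was highest in tumour 3 at 46.9 CPM. The groups overlapped, with 3 of 6 tumours above every gland, and the highest glands were the same 2 that were high in lymphocyte markers. The log2 difference of 0.67 ± 0.44 did not pass (SE, n = 4 and 6; edgeR adjusted p = 0.295). The ratio of Uhrf1 to Dnmt1 was 0.162, 0.269, 0.378 and 0.246 in glands 1 to 4 and 0.555 to 1.6 in the tumours, so it was above every gland in 6 of 6 tumours. This ratio, like those below, was chosen after the values were seen and was not tested.

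Of the enzymes that place new methyl groups, Dnmt3b was scarce in glands, at 0.742, 2.04, 2.12 and 1.08 CPM in glands 1 to 4. The tumours ran from 2.19 CPM in tumour 1 over a median of 4.92 CPM to 11 CPM in tumour 4. Tumour 1 was only just above gland 3, and the counts behind these levels were low, down to 17 in gland 4. Dnmt3b rose by 2.01 ± 0.55 on the log2 scale (SE, n = 4 and 6; edgeR adjusted p = 0.0330), but this call failed in 6 of 10 fits without 1 library, those that left out any gland, tumour 4 or tumour 6 (edgeR adjusted p up to 0.100). Testing all genes without a filter also ended it (edgeR adjusted p = 0.0541).

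Dnmt3a, its more abundant relative, was at 22.3, 23.6 and 21.3 CPM in glands 1 to 3 and at 38.5 CPM in gland 4. The tumours ran from 19.8 CPM in tumour 3 over a median of 32.8 CPM to 55.2 CPM in tumour 5. The groups overlapped, and tumour 3, which had the most Mki67, had the least Dnmt3a. The log2 difference was 0.37 ± 0.33 (SE, n = 4 and 6; edgeR adjusted p = 0.444). Counts of the antisense transcript Dnmt3aos were 1 to 18 per library against 333 to 2969 for Dnmt3a; whether counting used the strand is not given in the labels. The Dnmt3b to Dnmt3a ratio was 0.0281 to 0.0992 in glands and 0.0835 to 0.285 in tumours, with 4 of 6 tumours above every gland.

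None of the Tet genes, which oxidise methylated cytosine, passed the test in edgeR, where Tet1 alone had an unadjusted p below 0.05 (0.0487). Tet1 was at 2.48, 4.36, 2.45 and 4.07 CPM in glands 1 to 4 and ran from 3.29 CPM in tumours 1 and 6 over a median of 7.15 CPM to 11.2 CPM in tumour 3. The tumours that overlapped the glands were tumours 1 and 6, the libraries with salivary transcripts. The log2 difference was 0.99 ± 0.45 (SE, n = 4 and 6; edgeR adjusted p = 0.147), and without those 2 libraries it was 1.29 and passed (edgeR adjusted p = 0.0411).

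Tet2 was at 9.33, 14.8, 14.8 and 16.9 CPM in glands 1 to 4 and between 11 and 24.4 CPM in tumours, with a median of 14.3 CPM. Here tumour 1 was the highest tumour and tumour 3 the lowest, the reverse of their order for Uhrf1, Dnmt1 and Suz12. Tet3 was at 21.7, 36.0, 28.8 and 16.9 CPM in glands 1 to 4 and ran from 20.2 CPM in tumour 3 over a median of 31.6 CPM to 45.5 CPM in tumour 2. In each gene 2 of 6 tumours lay above every gland. The log2 differences were 0.22 ± 0.32 and 0.34 ± 0.31 (SE, n = 4 and 6; edgeR adjusted p = 0.646 and 0.460).

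The catalytic subunits of PRC2 moved apart. Ezh2 was at 7.31, 13.6, 12.3 and 13.2 CPM in glands 1 to 4. In the tumours it ran from 20.2 CPM in tumour 1 over a median of 35.6 CPM to 71.2 CPM in tumour 3, so the groups did not overlap. Ezh2 rose by 1.85 ± 0.43 on the log2 scale (SE, n = 4 and 6; edgeR adjusted p = 0.0190), a 3.60-fold difference. It was called in 9 of 10 fits without 1 library and lost without gland 1 (edgeR adjusted p = 0.0676). Without tumours 1 and 6 the log2 differences of Ezh2 and Dnmt3b were 2.14 and 2.07, and both were called (edgeR adjusted p = 0.00507 and 0.0249).

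Ezh1 was at 29.6, 33.5, 28.7 and 30.1 CPM in glands 1 to 4. The tumours ran from 14.5 CPM in tumour 4 over a median of 17.3 CPM to 17.8 CPM in tumour 2. Both groups were tight, with a coefficient of variation of 6.93% in glands and 7.54% in tumours, against 25.1% and 52.0% for Ezh2. Tumours 1 and 6, with their salivary transcripts, had 16.2 and 17.2 CPM and did not stand apart. Ezh1 fell by 0.86 ± 0.20 on the log2 scale (SE, n = 4 and 6; edgeR adjusted p = 0.0194), a difference of 1.81-fold seen in 6 of 6 tumours. The call was lost without gland 1 or gland 2 (edgeR adjusted p = 0.0564 and 0.0642) and with no filter on low counts (edgeR adjusted p = 0.0692), while the log2 difference stayed between -0.93 and -0.81 in all 10 fits without 1 library.

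**Figure D2:**
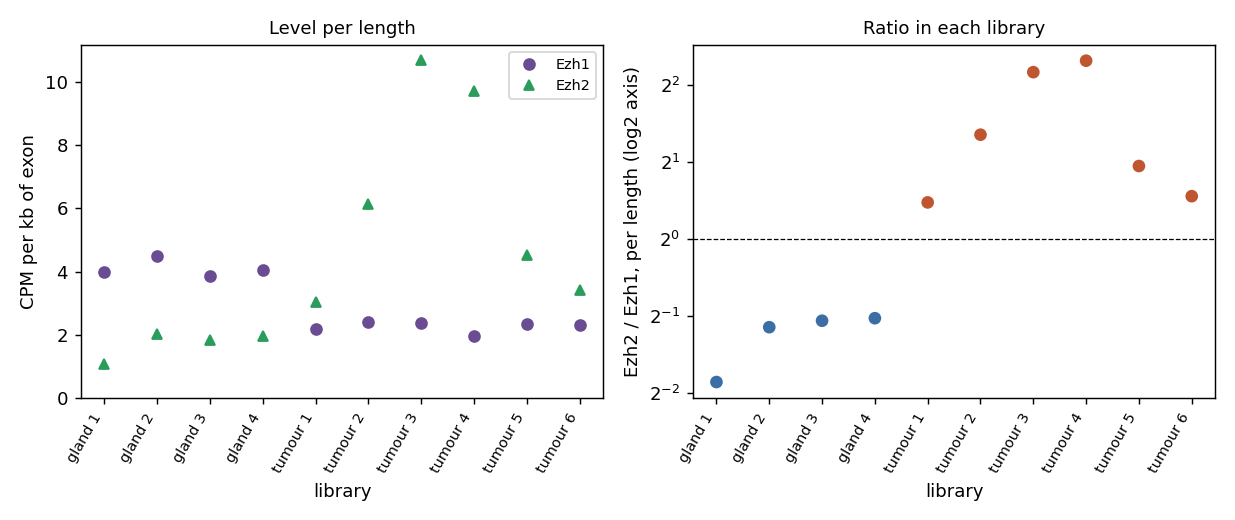
Left, Ezh1 and Ezh2 in CPM per kilobase of exon (linear axis from 0) in each of the 10 libraries. Right, their ratio per length on a log2 axis, glands in blue and tumours in red, with a dashed line at 1. The ratio was 0.275 to 0.489 in the 4 glands and 1.39 to 4.99 in the 6 tumours, so the line is crossed between the groups.

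Per kilobase of exon, Ezh1 was the more abundant of the pair in every gland and Ezh2 in every tumour. The ratio of Ezh2 to Ezh1 per length was 0.275, 0.451, 0.478 and 0.489 in glands 1 to 4. It was 1.39, 2.56, 4.50, 4.99, 1.93 and 1.47 in tumours 1 to 6, lowest in the 2 tumours with salivary transcripts. Suz12, which both forms need, was at 39.7, 51.0, 45.3 and 31.8 CPM in glands and ran from 34.2 CPM in tumour 1 over a median of 53.4 CPM to 91.7 CPM in tumour 3. The groups overlapped for Suz12, with 3 of 6 tumours above every gland. Its log2 difference was 0.48 ± 0.30 (SE, n = 4 and 6; edgeR adjusted p = 0.273).

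**Figure D3:**
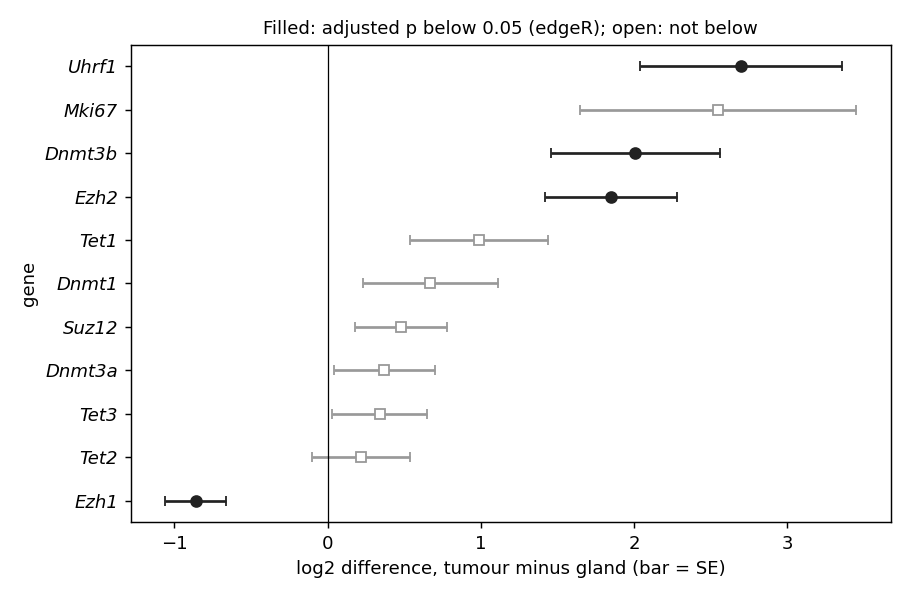
Log2 difference of tumour minus gland for the 10 genes and Mki67 (horizontal axis, bars SE) from the edgeR fit over all genes. Filled circles passed the adjusted threshold and open squares did not. Ezh1 is the only gene below 0, at -0.86, and Mki67 at 2.55 did not pass, with a standard error of 0.90.

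The order of the genes by level per length also differed between the groups. In glands Suz12 led with 8.48 ± 1.65 CPM per kilobase, ahead of Ezh1 with 4.10 ± 0.287 (SD, n = 4), and each was above the next gene in 4 of 4 glands. Dnmt1, Ezh2, Dnmt3a, Tet3 and Uhrf1 followed between 2.53 and 1.2 CPM per kilobase, and neighbours in this stretch exchanged places between glands. Dnmt3b and Tet1 were lowest, at 0.293 ± 0.135 and 0.216 ± 0.0654, each above the other in 2 of 4 glands. In tumours Suz12 led with 11.8 ± 4.05 CPM per kilobase (SD, n = 6), above Uhrf1 in 6 of 6, and Uhrf1 (7.83), Ezh2 (6.25) and Dnmt1 (4.02) came next. Ezh1 took the fifth place, at 2.26 ± 0.170, and was above Dnmt3a in 4 of 6 tumours. The length is the union of all annotated exons of a gene, which ran from 4259 bases for Uhrf1 to 16870 bases for Tet2 and can exceed that of the transcripts present.

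Mki67, the measure of proliferation, was at 3.91, 20.4, 14.4 and 1.46 CPM in glands 1 to 4. In tumours it was lowest in tumour 1 at 7.26 CPM, had a median of 34.3 CPM and reached 144 CPM in tumour 3. Tumour 1 lay within the gland range and the other 5 tumours above it. Glands 2 and 3, the highest in Mki67, were also those with the high sums of T and B cell markers, which touches each ratio to Mki67 below, and the part of lymphocytes in it was not tested. The log2 difference of 2.55 ± 0.90 missed the threshold (SE, n = 4 and 6; edgeR adjusted p = 0.0766), and it passed without tumour 1 and without tumours 1 and 6 (edgeR adjusted p = 0.0449 and 0.0383) and in DESeq2 (adjusted p = 0.0117). Of 15 proliferation genes, Mki67 included, 9 rose and 0 fell, with a median log2 difference of 2.55. Lowest in adjusted p were Birc5, Tyms, Cdk1 and Rrm2, with log2 differences of 4.30, 2.50, 4.65 and 3.03 (edgeR adjusted p = 0.00936, 0.00991, 0.0130 and 0.0154). All 15 rose without tumour 1, and 2 did without gland 1, where 1737 of 19779 and 430 of 21114 tested genes were called higher.

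**Figure D4:**
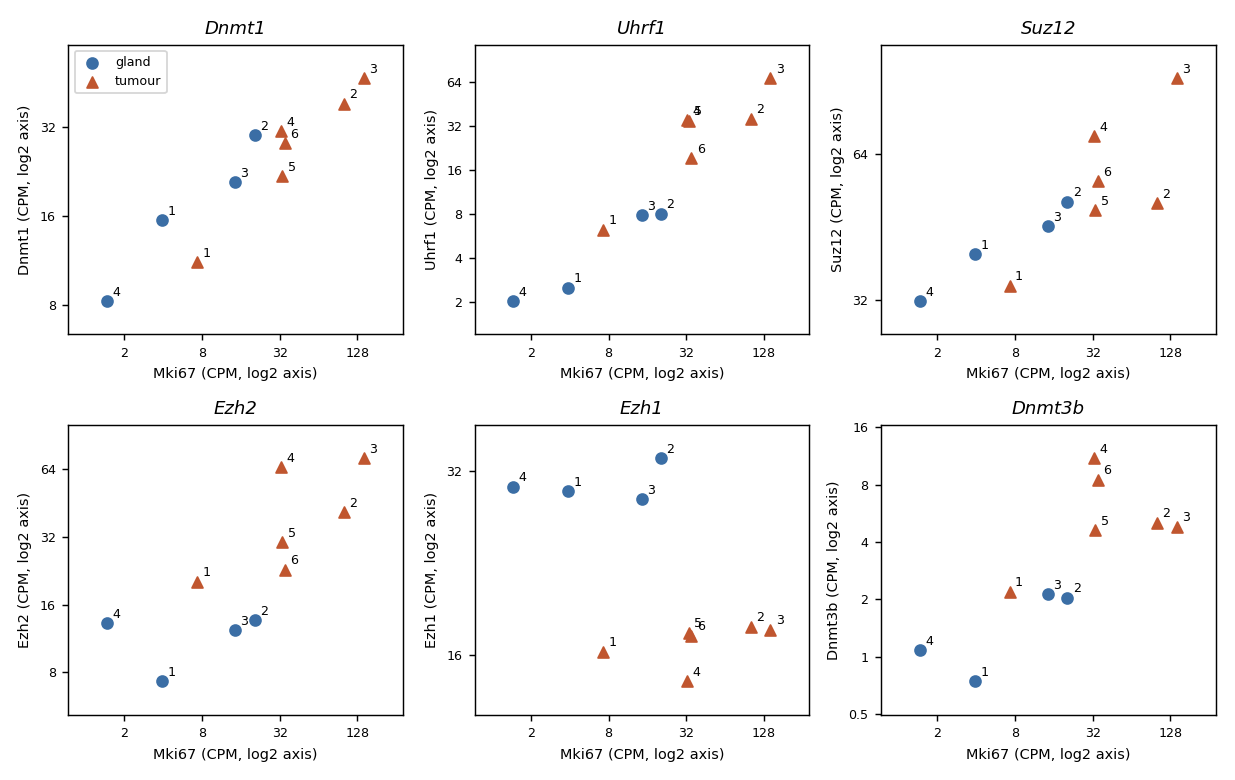
Level of 6 of the genes (vertical axes) against Mki67 (horizontal axes), both in CPM on log2 axes, for each gland (circles) and tumour (triangles), with replicate numbers. Dnmt1 and Uhrf1 are lowest where Mki67 is low and highest in tumour 3 with 144 CPM of Mki67, and Ezh1 forms 2 level bands, gland above tumour, across the range of Mki67.

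Within the 6 tumours, Dnmt1 and Uhrf1 had the highest Pearson's r with Mki67 of the 10 genes, while by Spearman's rho Ezh1 equalled Dnmt1 and stood above Uhrf1. Tumour 1, the low end of Mki67, is the library with 51.6% salivary counts and a TMM factor of 0.422. Dnmt1 had Pearson's r = 0.96 with log2 Mki67 (exact permutation p = 0.00556, adjusted over all 20100 genes 0.388) and Spearman's rho = 0.83 (exact permutation p = 0.0583, adjusted 0.731). Uhrf1 had r = 0.91 (exact permutation p = 0.0236, adjusted 0.388) and rho = 0.77 (exact permutation p = 0.103, adjusted 0.782). No gene of all 20100 passed after adjustment, and these 2 were the members with an unadjusted p below 0.05, as 6.45% of all genes were with a positive r. Their r stood at the 99.6th and 97.9th percentile of all genes. Without any 1 tumour, r was 0.89 to 0.99 for Dnmt1 and 0.73 to 0.94 for Uhrf1. Without tumours 1 and 3, the 2 farthest from the median Mki67, r was 0.76 for Dnmt1 and 0.32 for Uhrf1. The tumours left had 32.5 to 35 CPM of Mki67, apart from tumour 2 with 101 CPM. Such an r, here and below, therefore depends largely on tumour 2 and cannot show what a relation rests on.

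Of the PRC2 genes, Suz12 and Ezh2 had a lower r with Mki67 than Dnmt1 and Uhrf1. Suz12 had r = 0.77 and rho = 0.60 (exact permutation p = 0.0736 and 0.242, adjusted 0.391 and 0.782), and Ezh2 had r = 0.70 and rho = 0.60 (exact permutation p = 0.0958 and 0.242, adjusted 0.396 and 0.782). Without tumours 1 and 3 these r were -0.43 and 0.11. Ezh2 reached 64.9 CPM in tumour 4 with 32.5 CPM of Mki67, but 41.0 CPM in tumour 2 with 101 CPM of Mki67. Tet1 had r = 0.74 and rho = 0.31 (exact permutation p = 0.0833 and 0.564, adjusted 0.394 and 0.856), and r = 0.18 without tumours 1 and 3. The order depended on the measure of proliferation. With the mean of the proliferation list in place of Mki67, r was 0.92 for Suz12, 0.86 for Ezh2 and 0.89 for Tet1. It was then 0.91 for Dnmt1, 0.99 for Uhrf1 and 0.19 for Ezh1, and no member passed after adjustment.

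Ezh1 had r = 0.47 and rho = 0.83 (exact permutation p = 0.354 and 0.0583, adjusted 0.607 and 0.731), but over a 19.8-fold range of Mki67 among tumours its own level varied only 1.23-fold. Dnmt3b had r = 0.39 and rho = 0.20 (exact permutation p = 0.422 and 0.714, adjusted 0.659 and 0.923), and its highest tumours, 4 and 6, had 32.5 and 35 CPM of Mki67. Dnmt3a and Tet3 had r of -0.04 and 0.05 and rho of -0.31 and -0.03 (exact permutation p = 0.949 and 0.908 for r, 0.564 and 1 for rho, adjusted 0.976, 0.957, 0.856 and 1). Tet2 had r = -0.48 and rho = -0.49 (exact permutation p = 0.357 and 0.356, adjusted 0.610 and 0.782). Without tumours 1 and 3 the r of these 5 genes were 0.50, -0.50, -0.29, 0.66 and 0.92, in the order named, so those of Dnmt3b and Tet2 changed sign.

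Taken as a ratio to Mki67 in the same library, 9 of the 10 genes were lower in tumours than in glands and Uhrf1 was level. The log2 of Uhrf1 over Mki67 was -0.59 ± 0.77 in glands (SD, n = 4) and -0.58 ± 0.66 in tumours (SD, n = 6), a difference of 0.02 (exact permutation p = 0.971, adjusted over all genes 0.975). The differences of Dnmt3b and Ezh2 were -0.68 and -0.91 (exact permutation p = 0.448 and 0.343, adjusted 0.498 and 0.398). The median of all genes was -2.56, and 4.52% of them had a difference above 0. For 0 members was the ratio below every gland in every tumour, as it was for 10.5% of all genes.

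Ezh1 fell farthest below Mki67, by a log2 difference of -3.50 (exact permutation p = 0.0286, adjusted 0.0896). Dnmt1, Suz12 and Tet3 were at -1.95, -2.20 and -2.30 (exact permutation p = 0.0286, 0.0381 and 0.0381, adjusted 0.0896, 0.100 and 0.100). Tet1, Dnmt3a and Tet2 were at -1.74, -2.31 and -2.45 (exact permutation p = 0.114, 0.0952 and 0.0667, adjusted 0.169, 0.148 and 0.117). The smallest p these 210 splits allow is 0.00952, and 0 members and 0 of 20100 genes passed after adjustment, with 4 members and 8769 genes at an unadjusted p below 0.05. Without tumour 1, whose Mki67 lay in the gland range, 5 members (Dnmt1, Tet2, Tet3, Ezh1 and Suz12) had an adjusted p of 0.0303 (exact permutation test), where 52.3% of all genes were called. With the mean of the proliferation list in place of Mki67, 3 members (Dnmt1, Ezh1 and Suz12) were called, where 26.9% of all genes were. These shares are near those of the members.

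With the log2 level of Mki67 as a term in the edgeR fit, 0 members passed, where 2.17% of all genes did, and 3 had an unadjusted p below 0.05. Of these, Ezh1 kept its size, at -0.94 ± 0.26 (SE; edgeR adjusted p = 0.0810). Ezh2 and Uhrf1 were at 1.23 ± 0.54 and 1.02 ± 0.44 (SE; edgeR adjusted p = 0.203 and 0.197). Dnmt1 turned from 0.67 to -0.49 ± 0.30 (SE; edgeR adjusted p = 0.336). In the same fit each doubling of Mki67 went with 0.45 ± 0.08 for Dnmt1, 0.64 ± 0.12 for Uhrf1 and 0.03 ± 0.07 for Ezh1 on the log2 scale (SE; edgeR adjusted p = 0.133, 0.133 and 0.867). The slope was called as positive for 0 members and for 0.00995% of all genes. Mki67 itself was higher in most tumours, so this fit can separate the group from Mki67 only in part.

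Of the genes with the most similar pattern over the 10 libraries, those of Uhrf1 were Bub1b, Ccna2 and Hmgb2 (Pearson's r of log2 CPM 0.997, 0.993 and 0.990). The first encodes a mitotic checkpoint kinase and Ccna2 encodes cyclin A2. For Dnmt1 they were Incenp, a subunit of the chromosomal passenger complex, the replication helicase subunit Mcm3, and Cytip (0.957, 0.956 and 0.954). For Ezh2 they were the ribosomal protein genes Rpl13a and Rps23, and Bola2 (0.987, 0.985 and 0.984), and for Suz12 Cpsf6, Ints7 and Taf4b (0.976, 0.973 and 0.968). For Ezh1 they were Zfp346, Pdzd2 and Fitm2 (0.961, 0.952 and 0.944), and within the 6 tumours alone these were 0.781, 0.922 and 0.198. The highest r was with Cdkn1a for Dnmt3a (0.937), Tnc for Dnmt3b (0.956), Gmeb1 for Tet1 (0.961), Pigv for Tet2 (0.965) and Sf3a1 for Tet3 (0.923). Within the 6 tumours alone r was 0.989 to 0.994 for the genes named with Uhrf1 and 0.962 to 0.994 for those with Dnmt1. It was 0.962 to 0.993 for those with Ezh2 and 0.971 to 0.987 for those with Suz12. All these genes were picked as the highest among 9644 candidates, so high values follow from the choice. The libraries also share the difference between gland and tumour, and its part in these values was not tested.

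The calls among other genes of these pathways in the main fit are to be read against the 6.89% of all genes called higher and the 8.19% called lower. Of 9 tested PRC2 partners 0 rose and 1, Jarid2, fell, with a median log2 difference of 0.50. Without tumours 1 and 6 the counts were 1 and 2, where 1978 and 2277 of all 19585 tested genes were called higher and lower. Jarid2, a subunit that guides PRC2 to its targets, was at 22.7, 31.3, 28.0 and 20.6 CPM in glands 1 to 4 and between 8.41 and 15.9 CPM in tumours, without overlap, and fell by 1.03 ± 0.26 on the log2 scale (SE, n = 4 and 6; edgeR adjusted p = 0.0252). Leaving out gland 1, 2 or 3 or tumour 4 ended the call (edgeR adjusted p up to 0.0833), as did upper-quartile scaling (0.0520), no filter (0.0586) and age as a covariate (0.0600). Eed, the third core subunit of PRC2, had a mean of 23.3 ± 2.70 CPM over glands (SD, n = 4) and of 28.6 ± 8.45 CPM over tumours (SD, n = 6; edgeR adjusted p = 0.458); it was singled out as a core subunit after its values were seen.

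Of 20 genes of Polycomb repressive complex 1 (PRC1), which ubiquitinates histone H2A, 1 rose and 0 fell, with a median of 0.25. Pcgf6, a subunit of a variant PRC1, was at 3.57, 4.53, 4.73 and 7.44 CPM in glands 1 to 4 and between 6.58 CPM in tumour 1 and 21.4 CPM in tumour 3. All tumours other than tumour 1 were above the highest gland. Its log2 difference was 1.54 ± 0.39 (SE, n = 4 and 6; edgeR adjusted p = 0.0256), and leaving out gland 1, 2 or 3 or tumour 4 ended the call (edgeR adjusted p up to 0.0852). Of 7 genes that remove the H3K27 and H2A marks or assist in it, 0 passed in edgeR, DESeq2 and limma-voom. In edgeR 1 of them, Uty, had a raw p under 0.05. It is named after its values were seen, which were low, at 0.114 to 0.557 CPM in glands and 0.198 to 2.67 CPM in tumours, highest in tumour 1. The median of the 7 was -0.10, or 0.03 under upper-quartile scaling.

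Of 14 partners and readers of DNA methylation, 1 rose and 0 fell, with a median of -0.02, or 0.15 under upper-quartile scaling. Hells, a chromatin remodeller needed for DNA methylation, was at 1.80, 6.60, 6.35 and 2.92 CPM in glands 1 to 4. In the tumours it ran from 8.43 CPM in tumour 1 to 114 CPM in tumour 3, above every gland in 6 of 6. Its log2 difference was 3.34 ± 0.71 (SE, n = 4 and 6; edgeR adjusted p = 0.0141), lost without gland 1 (edgeR adjusted p = 0.0502). With Mki67 as a covariate the log2 differences of Hells, Pcgf6 and Jarid2 were 1.69, 1.18 and -1.07, and none of the 3 was called (edgeR adjusted p = 0.139, 0.235 and 0.103). Without tumour 1, under upper-quartile scaling and in DESeq2, 3 of the 14 rose. Of all tested genes, 1737 of 19779, 1809 of 20101 and 2657 of 20101 were called higher in these settings.

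**Figure D5:**
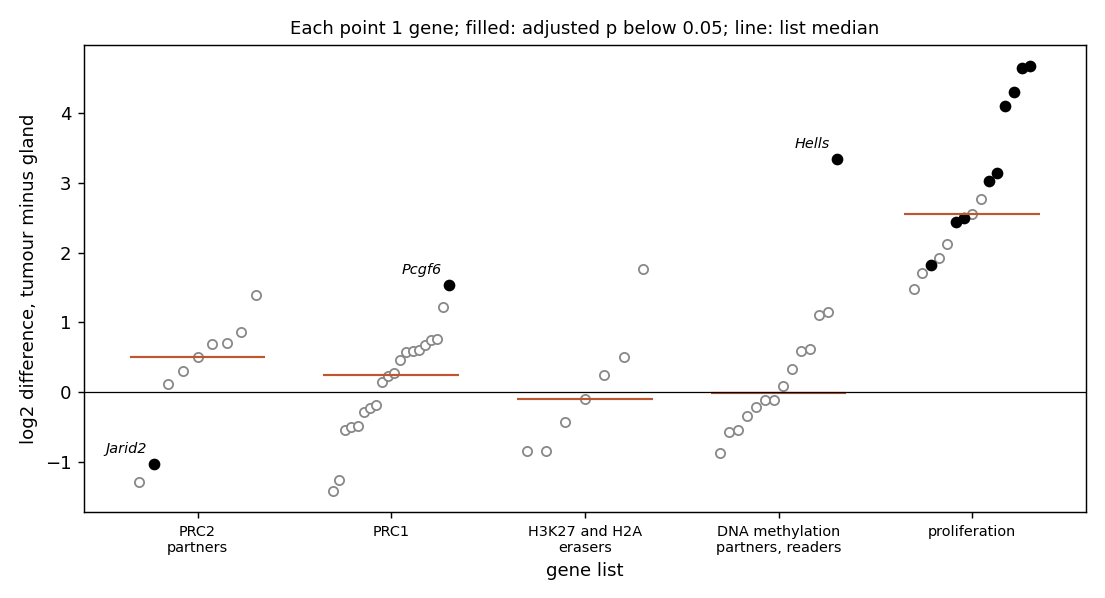
Log2 difference of tumour minus gland (vertical axis) for each tested gene of 5 lists, with the list median as a line. Filled points passed the adjusted threshold in edgeR. In the first 4 lists only Jarid2, Pcgf6 and Hells passed, at -1.03, 1.54 and 3.34, while 9 of 15 proliferation genes did.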

How the data were processed

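RNA of whole tissue was sequenced from polyA libraries. The authors deposited 1 table of whole-number read counts per gene symbol for 10 libraries. Salmon 1.2.0, DESeq and the mm9 build are listed in the submitters' processing notes without their roles, and the step from transcripts to genes is not stated there. Should the whole numbers be rounded Salmon estimates, its model divided reads between related genes. The 3 samples of purified epithelium were not analysed here. Groups came from the labels. Glands 1 to 3 share an age of 20 weeks and tumours 1 and 6 one of 25 weeks, while the other libraries each have their own age. Each library has its own identifier in its title, but the labels do not say that each comes from its own animal. For libraries of equal age the spread may therefore be technical. No pair was a copy (lowest chi-square per degree of freedom 27.8, glands 2 and 3).

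Genes were filtered with filterByExpr, scaled by TMM and tested, tumour against gland, with edgeR 4.0.16 (quasi-likelihood F test) in R 4.3.3, adjusted by Benjamini-Hochberg over 20101 genes, threshold 0.05, two-sided. Standard errors are the log2 difference over the square root of F. CPM were scaled by TMM, log2 values use a prior count of 0.5, and lengths are exon unions of GENCODE M21 (GRCm38). Relations with Mki67 used all 720 pairings of the 6 tumours and ratios to Mki67 all 210 splits, two-sided, for every gene. Tested on simulated data (19451 genes), edgeR called 0 of 67 genes given a 2-fold change, 15 of 67 given 4-fold and 30 of 66 given 8-fold. It made 0 false calls. No other genes were changed there, while 15.1% of genes were called in the data, so the adjusted threshold was stricter in the simulation. These shares therefore do not give the power of the real comparison, in which Ezh1 was called at 1.81-fold. A gene that missed the threshold may still differ.

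The members, lists and tests were chosen with earlier results of these data known. Named genes were all 10 members, Mki67, up to 4 called genes per direction in each pathway list and the 3 genes most like a member among those above the median level (the first alone is given for 5 members). The alternatives comprised DESeq2 1.42.0, limma-voom (limma 3.58.1), scaling by RLE or by upper quartile, 2 filters, age or Mki67 as a covariate, removal of salivary and mitochondrial genes, another prior count, a proliferation list in place of Mki67, and leaving out libraries. Effects on the pathway lists were added after the data were seen.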

Additional observations from a re-analysis of the deposited data

Results flagged for a closer look

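Dnmt3a in gland 4, at 38.5 CPM, stood apart from the other 3 glands, which lay between 21.3 and 23.6 CPM. It was the only value far from the rest of its group among 22 groups examined, of which chance flags about 1 in 20. Gland 4 was also the gland of 40 weeks of age, with 37.5% mitochondrial counts and the highest sum of skeletal muscle markers, 102000 CPM. Their part in this value was not tested.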

How the results depend on the processing

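The number of genes called was 3030, and it was 5252 with DESeq2, 1899 with age as a covariate, 437 with Mki67 as a covariate and 1053 to 3521 without 1 library, the lowest without gland 1. Of the members 3 were called higher and 1 lower. With Mki67 as a covariate these counts were 0 and 0, with no filter on low counts 2 and 0, and without 1 library 0 to 3 and 0 to 1, both 0 without gland 1. Without gland 4 the count higher was 1, and without gland 2 the count lower was 0. RLE and upper-quartile scaling, DESeq2, limma-voom, the stricter filter and removal of salivary and mitochondrial genes each left 3 and 1. With Mki67 as a covariate the log2 differences of Dnmt1, Tet3 and Suz12 turned to -0.49, -0.02 and -0.11. The number of members that differed from Mki67 in size was 0, but 3 with the proliferation list in place of Mki67 (26.9% of all genes called), and 0 to 5 without 1 library, the highest without tumour 1 (52.3% of all genes). The difference of Uhrf1 relative to Mki67 was -0.23 to 0.37 without 1 library, with both signs. With the proliferation list, r turned to 0.07 for Dnmt3a and -0.08 for Tet3, and kept its sign for the other members. Without 1 tumour r ran from -0.71 to 0.53 for Dnmt3a, -0.60 to 0.58 for Dnmt3b, -0.89 to 0.14 for Tet2 and -0.37 to 0.83 for Tet3. The cause was not tested. No paired analysis was possible because the labels give no number or identifier that ties a gland to a tumour (the numbers used here only name the libraries, in accession order). Dnmt3b and Tet1 had few counts, with lowest counts of 17 and 44 in a library.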
